A study of Mus musculus with 12 samples.

Results

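Keratins are the intermediate filament proteins of epithelial cells. This account covers the 39 type I and type II keratin genes measured on the arrays, chosen as the non-control probes whose accession maps to a mouse symbol made of Krt and a number, with keratin-associated proteins left out. They are read by 42 probes and stand among 32678 genes in all, of which 31064 passed the filter on dim probes, all 39 keratins included. RNA was measured on 12 Agilent whole mouse genome arrays of 1 colour, each hybridised with RNA from a single colony of dental epithelial stem cells, grown in culture in 2 dimensions from the labial cervical loop, the stem cell niche of the mouse incisor. There were 4 double null colonies (Bmi1-;Ink4a/Arf-), 4 Bmi1 null colonies and 4 wild-type colonies, all of mixed genetic background and, as far as the sources used here say, of no stated age. Bmi1 is a subunit of Polycomb repressive complex 1, and the Ink4a/Arf locus, lost in the double null colonies only, encodes inhibitors of the cell cycle that Bmi1 is known to repress. The wild-type replicates are numbered 1, 3, 4 and 5 and those of the mutants 1 to 4, and values are listed in that order. How many mice gave rise to the colonies is not stated in the sources used here. A p-value here sets a genotype difference against the spread among colonies of all genotypes, and not against a known spread among mice.

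Every keratin filament is built from pairs of a type I and a type II keratin, and the pair a cell makes changes with its place and its state. Cells of the basal layer of stratified epithelia make Krt5 and Krt14, cells that leave it for the upper layers make Krt1 and Krt10 in skin and Krt4 and Krt13 in mucosa, wounded or proliferating epithelium adds Krt6a, Krt6b, Krt16 and Krt17, simple epithelia make Krt8 and Krt18, and the hair follicle has sets of its own for the inner root sheath and for the hair. Type II genes lie in a cluster on mouse chromosome 15 and type I genes, with Krt18 apart from them, in a cluster on chromosome 11.

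A level here is the log2 processed signal of a gene's brightest probe minus the 75th percentile of its array, and levels are compared only within a gene, since probes differ in brightness. A change is the difference of 2 genotypes' mean levels minus the median of that difference over all 31064 genes, which was -0.06 for double null against Bmi1 null colonies, -1.24 for Bmi1 null against wild type and -1.39 for double null against wild type. The SE, the adjusted p (limma, Benjamini-Hochberg over all genes) and the calls at an adjusted p under 0.05 belong to the difference before that median was taken off. The wild-type arrays had a narrower spread of log2 signal, with an interquartile range of 2.56 ± 0.06, against 4.66 ± 0.42 in double null and 4.52 ± 0.18 in Bmi1 null arrays (SD, n = 4 each). The share of spots well above background was 80.1% in double null, 82.5% in Bmi1 null and 94.6% in wild-type arrays. The part of this difference in the changes against wild type was not tested. All 6 epithelial markers (Epcam, Cdh1, Itga6, Itgb4, Col17a1 and Esrp1) were well above background on every array and were called higher in both mutants than in wild type. Their summed level was 4.91 to 5.67 in double null, 4.80 to 5.30 in Bmi1 null and 2.65 to 3.47 in wild-type colonies, without overlap between mutant and wild-type colonies, in the direction of the basal, wound and filament linker genes below. The summed level of 10 mesenchymal markers was 1.62 to 5.19 in double null, 1.92 to 2.86 in Bmi1 null and 3.47 to 3.72 in wild-type colonies, and that of 7 immune markers -0.38 to 0.30 in double null, -0.12 to 0.26 in Bmi1 null and 3.05 to 3.32 in wild-type colonies. These sums are levels, from which the median difference of all genes was not taken off as it was from the changes. The part of these markers in any change was not tested.

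Double null replicate 4 stood apart from the other double null colonies in its keratins, and results that rest on it are given with and without it. Of the 38 keratins measured on all 4 double null arrays, 8 (21.1%) were more than 2-fold higher in replicate 4 than in any other double null colony, 5 of the 10 suprabasal keratins among them, against 1.85% of all genes. Krt1 was 178.5-fold above the next double null colony, Krt76 90.8-fold, Krt10 55.5-fold and Krt78 24.6-fold. Krt75, Krt12, Krt90 and Krt23 were 5.30-fold, 5.06-fold, 4.82-fold and 2.63-fold above it. The cornified envelope gene Lor, at 5.72 in replicate 4 and -1.70 to 0.62 in the others, moved with them, as did the summed mesenchymal markers, at 5.19 against 1.62 to 2.89. The part of these genes in the keratin values was not tested. Replicate 4 was singled out by these keratin values, so calls made without it are not independent of them. Double null replicate 1 stood apart in more genes. There 8.24% of all genes were more than 2-fold higher than in any other double null colony, as were 5 of the 38 keratins (13.2%).

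**Figure D1:**
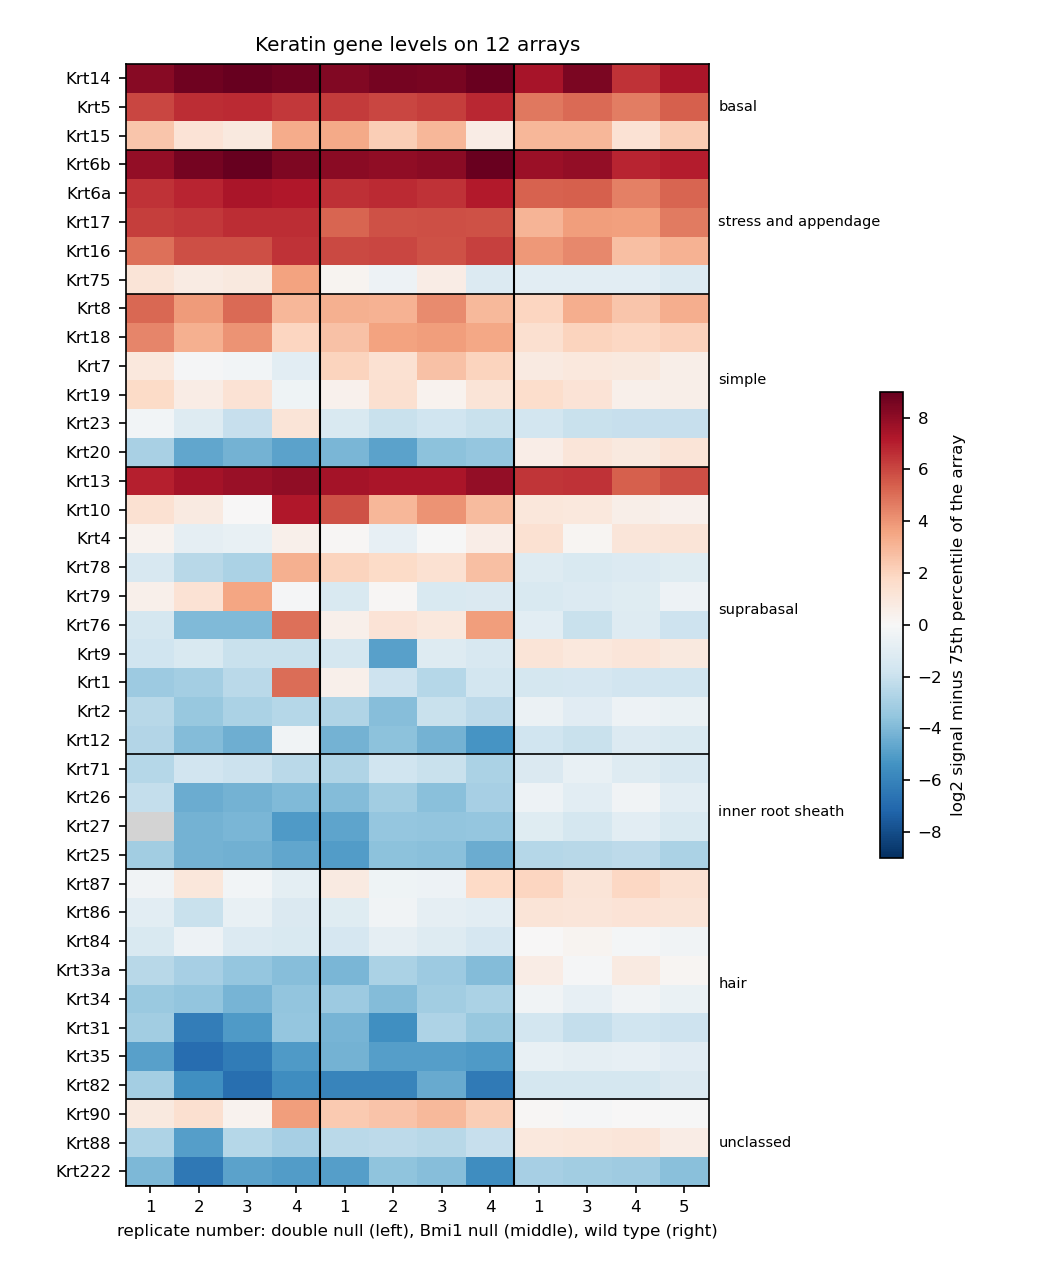
Levels of the 39 keratin genes (rows, grouped by class) on the 12 arrays (columns: double null on the left, Bmi1 null in the middle, wild type on the right), as log2 signal scaled to the array's 75th percentile, with the missing double null replicate 1 value of Krt27 in grey. Krt1, Krt10, Krt76 and Krt78 of double null replicate 4 stand out from the other 3 double null columns, and the hair and inner root sheath rows are bluer in both mutants than in wild type.

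Set against wild type, both mutants had higher Krt5, Krt14 and wound keratins, and lower hair keratins. In RNA from whole colonies, fewer cells of a type and less RNA per cell cannot be told apart. In Bmi1 null colonies 12 of 39 keratins were called higher (30.8%) and 18 lower (46.2%), where 25.2% of all genes tested were called higher and 58.3% lower. In double null colonies 13 were called higher (33.3%) and 19 lower (48.7%), where 25.7% of all genes were called higher and 59.7% lower. These shares lie near the background, and what follows turns on which members moved which way. Both comparisons use the same 4 wild-type colonies. With slide as a fixed block 8 keratins were called higher in double null colonies, without Krt8, Krt14, Krt18, Krt23 and Krt90, and 10 in Bmi1 null colonies, without Krt7 and Krt10. The sign of the change relative to the median held in all alternatives run, which were 23 for most genes and 22 for Krt12, Krt31, Krt35, Krt82 and Krt222, for the 12 higher genes and for 13 of the 18 lower genes of the Bmi1 null comparison, and for the 13 higher and 12 of the 19 lower genes of the double null comparison. No direction is given for the remaining ones, which are Krt4, Krt25, Krt71, Krt84 and Krt222 in both and Krt7 and Krt87 in the double null comparison.

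Between the mutants few keratins differed. With all arrays, 0 keratins were called higher in double null colonies over Bmi1 null ones, against 2.81% of all genes, and 1, Krt7, was called lower, against 4.62% of all genes. Of the 39 keratins 9 had an unadjusted limma p under 0.05. The share of all genes under that p was not counted, so these 9 are not read as an excess of keratins. Without double null replicate 4, 1 keratin was called higher, against 2.4% of all genes, and 5 were called lower, against 4.38%. The higher one was Krt79, and the lower ones were Krt7, Krt10, Krt76, Krt78 and Krt90. Replicate 4 was singled out by its keratin values, so the calls gained without it are not independent of that choice.

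The basal pair was higher in both mutants than in wild type. Krt5, the type II keratin of basal keratinocytes, had levels of 6.04, 6.61, 6.74 and 6.33 in double null and 6.27, 6.04, 6.20 and 6.77 in Bmi1 null colonies. Wild-type colonies had 4.76, 5.10, 4.59 and 5.35. No mutant colony overlapped a wild-type colony, and the change was 2.88 ± 0.24 (SE, adjusted p = 8.51e-05) in double null and 2.61 ± 0.24 (SE, adjusted p = 1.77e-04) in Bmi1 null colonies against wild type. Krt14, its type I partner, had levels of 8.16, 8.76, 9.34 and 8.76 in double null and 8.34, 8.58, 8.55 and 8.92 in Bmi1 null colonies. The wild-type levels were 7.42, 8.45, 6.54 and 7.36. The highest wild-type colony, replicate 3, lay within the range of both mutants, and the change was 2.71 ± 0.36 (SE, adjusted p = 0.00407) in double null and 2.40 ± 0.36 (SE, adjusted p = 0.00911) in Bmi1 null colonies. Krt15, a type I keratin of basal cells and of the hair follicle bulge, had levels of 2.53, 1.26, 0.89 and 3.33 in double null and 3.39, 2.20, 2.98 and 0.65 in Bmi1 null colonies. Wild-type colonies gave 3.0, 3.02, 1.29 and 2.27. All 3 genotypes overlapped, and it was not called in any comparison, at 1.0 ± 0.65 (SE, adjusted p = 0.581) in double null and 1.15 ± 0.65 (SE, adjusted p = 0.899) in Bmi1 null colonies against wild type. Between the mutants the changes were 0.17 ± 0.24 (SE, adjusted p = 0.844) for Krt5, 0.22 ± 0.36 (SE, adjusted p = 0.858) for Krt14 and -0.24 ± 0.65 (SE, adjusted p = 0.848) for Krt15. On the slide that held 1 array of each genotype, Krt5 was 2.90 above the slide's median difference in double null and 1.87 in Bmi1 null colonies against wild type, and Krt14 was 2.15 above it in double null and 1.07 in Bmi1 null colonies. On the slide that held 2 Bmi1 null and 2 wild-type arrays these values were 3.27 for Krt5 and 3.08 for Krt14. The median of the 3 basal genes was 2.71 in double null and 2.40 in Bmi1 null colonies against wild type, and over the other scalings, background corrections and the slide block it ranged over 0.62 to 2.71 in double null and 0.59 to 2.47 in Bmi1 null colonies.

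The keratins of wounded and hyperproliferative epithelium, Krt6a, Krt6b, Krt16 and Krt17, were higher in both mutants. With Krt75, of the hair follicle, they make up the stress and appendage class. Its medians were 3.64 in double null and 2.87 in Bmi1 null colonies, with ranges of 1.21 to 3.64 and 0.93 to 3.04 over the same alternatives. All 5 members were called higher in double null colonies, against 25.7% of all genes, and 4 of 5, all but Krt75, in Bmi1 null colonies, against 25.2%. In Bmi1 null colonies the call of Krt6b ended under the replicate block or without wild-type replicate 4 or Bmi1 null replicate 4 (adjusted p of up to 0.0701). Krt16, a type I keratin induced at wound edges, had levels of 4.96, 5.79, 5.80 and 6.53 in double null and 5.96, 6.03, 5.74 and 6.18 in Bmi1 null colonies. The 4 wild-type colonies had 3.92, 4.32, 2.74 and 3.12. Krt6a, a type II keratin of wounds and of the oral mucosa, had levels of 6.50, 6.86, 7.35 and 7.21 in double null and 6.57, 6.71, 6.52 and 7.17 in Bmi1 null colonies. In wild type it was at 5.29, 5.40, 4.52 and 5.25. For both genes every mutant colony lay above every wild-type colony. The change was 3.64 ± 0.37 (SE, adjusted p = 9.02e-05) for Krt16 and 3.26 ± 0.26 (SE, adjusted p = 2.29e-05) for Krt6a in double null colonies, and 3.69 ± 0.37 (SE, adjusted p = 4.75e-05) and 2.87 ± 0.26 (SE, adjusted p = 7.85e-05) in Bmi1 null colonies. Krt6b, a close paralogue of Krt6a, was 7.93 to 9.09 in double null, 7.96 to 8.93 in Bmi1 null and 6.82 to 7.89 in wild-type colonies, and how far the probes of the paralogues read each other was not tested.

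Krt17, a type I keratin of wounds and epithelial appendages, had levels of 6.25, 6.34, 6.68 and 6.67 in double null and 5.25, 5.74, 5.78 and 5.75 in Bmi1 null colonies. The levels in wild type were 3.04, 3.78, 3.72 and 4.65. The genotypes formed 3 separate ranges, with double null highest and wild type lowest. The change was 4.09 ± 0.29 (SE, adjusted p = 2.98e-06) in double null and 3.07 ± 0.29 (SE, adjusted p = 8.03e-05) in Bmi1 null colonies against wild type, and 0.92 ± 0.29 (SE, adjusted p = 0.102) between the mutants, which was not called. Krt75, a type II keratin of the companion layer of the hair follicle, had levels of 1.19, 0.71, 0.91 and 3.59 in double null and 0.24, -0.48, 0.64 and -1.26 in Bmi1 null colonies. Wild-type colonies had -0.97, -0.92, -0.97 and -1.23. Double null colonies lay above all others, replicate 4 highest, and Bmi1 null replicate 4 lay below the wild-type range while the other Bmi1 null colonies lay above it. The change was 4.02 ± 0.57 (SE, adjusted p = 8.06e-04) in double null colonies against wild type, 2.05 ± 0.57 (SE, adjusted p = 0.198) in Bmi1 null colonies and 1.87 ± 0.57 (SE, adjusted p = 0.0747) between the mutants. Without double null replicate 4 the last was 1.15 ± 0.37 (SE, adjusted p = 0.0946).

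Simple keratins split. Krt18 was called higher in both mutants and Krt8, with which it pairs in simple epithelia, in double null colonies, while Krt20, a type I keratin known from gut epithelium, was called lower in both, and Krt19, a type I keratin of glandular and bulge cells, was not called. Krt8 had levels of 5.14, 3.86, 5.09 and 2.99 in double null and 3.18, 3.11, 4.22 and 2.92 in Bmi1 null colonies. The wild-type levels were 1.94, 3.24, 2.47 and 3.29. Double null replicates 1, 2 and 3 lay above all wild-type colonies and replicate 4 lay within the wild-type range. The change was 2.93 ± 0.49 (SE, adjusted p = 0.0106) in double null and 1.86 ± 0.49 (SE, adjusted p = 0.247) in Bmi1 null colonies, so the gene was called in double null colonies only, and the difference between the mutants, 0.97 ± 0.49 (SE, adjusted p = 0.315), was not called. A second Krt8 probe gave 3.19 in double null and 2.08 in Bmi1 null colonies in a fit of every probe, with an adjusted p of 0.037 for Bmi1 null against wild type. In that fit the first probe gave 2.59 in double null and 1.55 in Bmi1 null colonies.

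Krt18 had levels of 4.37, 3.19, 4.06 and 1.91 in double null and 2.63, 3.62, 3.79 and 3.50 in Bmi1 null colonies. Wild-type colonies gave 1.47, 2.02, 1.86 and 2.05. Double null replicate 4 again lay within the wild-type range, and the other mutant colonies lay above it. The change was 2.93 ± 0.45 (SE, adjusted p = 0.00685) in double null and 2.77 ± 0.45 (SE, adjusted p = 0.007) in Bmi1 null colonies. Neither quantile normalization nor the authors' deposited table gave the calls of Krt8 and Krt18, with adjusted p of up to 0.41 for Krt8 and 0.211 for Krt18 in double null and 0.203 for Krt18 in Bmi1 null colonies. Krt19 had levels of 1.75, 0.67, 1.31 and -0.40 in double null and 0.42, 1.47, 0.35 and 1.15 in Bmi1 null colonies. The 4 wild-type colonies had 1.57, 1.23, 0.43 and 0.51. The genotypes overlapped, at 1.29 ± 0.44 (SE, adjusted p = 0.836) and 1.15 ± 0.44 (SE, adjusted p = 0.861) in double null and Bmi1 null colonies against wild type. Krt20 was -4.81 to -2.91 in double null, -4.78 to -3.50 in Bmi1 null and 0.60 to 1.19 in wild-type colonies. Its change of -3.71 ± 0.40 (SE, adjusted p = 2.15e-07) in double null and -3.72 ± 0.40 (SE, adjusted p = 3.01e-07) in Bmi1 null colonies had a range over the alternatives of -4.74 to -2.23 and -4.66 to -2.34. Krt23, a type I keratin of glandular epithelium, was -2.05 to 1.14 in double null, -1.97 to -1.37 in Bmi1 null and -2.06 to -1.63 in wild-type colonies, and it was called higher in double null colonies, at 2.76 ± 0.51 (SE, adjusted p = 0.0233), a call that ended without replicate 4, at 2.10 ± 0.35 (SE, adjusted p = 0.055), and also without double null replicate 1 or wild-type replicate 5. The median of the 6 simple keratins was 2.03 in double null and 1.64 in Bmi1 null colonies, with ranges of 0.09 to 2.03 and 0.26 to 1.64 over the alternatives.

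Krt7, a type II keratin of simple and glandular epithelia, was the keratin called different between the mutants when all arrays were used. Its levels were 0.95, -0.10, -0.24 and -0.95 in double null and 2.03, 1.35, 2.62 and 1.98 in Bmi1 null colonies. In wild type it was at 0.82, 0.94, 0.91 and 0.55. All 4 double null colonies lay below all 4 Bmi1 null colonies, and 3 of them lay below the wild-type range. The change was -2.02 ± 0.36 (SE, adjusted p = 0.00534) between the mutants, and without double null replicate 4 it was -1.79 ± 0.34 (SE, adjusted p = 0.00897). With slide as a fixed block the change was -2.16 and the call ended, at an adjusted p of 0.0792. Within slides it was -1.42 on the slide with 1 array of each genotype and -2.49 on the slide with 2 double null and 1 Bmi1 null arrays. Against wild type Krt7 was called higher in Bmi1 null colonies, at 2.43 ± 0.36 (SE, adjusted p = 0.00802), a call that the authors' deposited table (0.68, adjusted p = 0.112), quantile normalization (0.79, adjusted p = 0.0785) and the slide block (2.26, adjusted p = 0.0714) did not give.

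The suprabasal keratins, made as cells leave the basal layer, varied among colonies. Krt10, the type I keratin of the spinous layer of skin, had levels of 1.39, 0.84, 0.013 and 7.19 in double null and 5.75, 2.96, 4.04 and 2.81 in Bmi1 null colonies. The levels in wild type were 1.02, 0.95, 0.54 and 0.42. All Bmi1 null colonies lay above all wild-type colonies. Double null replicates 1, 2 and 3 lay near the wild-type range, and replicate 4 was the highest of the 12. The change was 4.40 ± 1.24 (SE, adjusted p = 0.0301) in Bmi1 null colonies and 3.02 ± 1.24 (SE, adjusted p = 0.23) in double null colonies against wild type. Between the mutants it was -1.47 ± 1.24 (SE, adjusted p = 0.53) with all arrays and -3.14 ± 0.60 (SE, adjusted p = 0.0103) without replicate 4. The double null change against wild type was 1.32 ± 0.60 (SE, adjusted p = 0.98) without it. The Bmi1 null call against wild type ended under 7 of 23 alternatives, which were quantile normalization, slide as a fixed block, the replicate block and leaving out Bmi1 null replicate 1 or 3 or wild-type replicate 4 or 5, with an adjusted p of up to 0.122.

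Krt1, the type II partner of Krt10, had levels of -3.26, -3.04, -2.44 and 5.04 in double null and 0.43, -1.89, -2.57 and -1.66 in Bmi1 null colonies. Wild-type colonies had -1.61, -1.51, -1.73 and -1.78. Double null replicates 1 and 2 lay below every other colony, replicate 4 above every other colony, and Bmi1 null replicate 1 was second. It was not called in any comparison with all arrays, at 2.12 ± 1.46 (SE, adjusted p = 0.646) and 1.47 ± 1.46 (SE, adjusted p = 0.885) in double null and Bmi1 null colonies against wild type and 0.55 ± 1.46 (SE, adjusted p = 0.892) between the mutants, the last being -1.49 ± 0.55 (SE, adjusted p = 0.138) without replicate 4.

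Krt76, a type II keratin of the palate and of suprabasal skin, had levels of -1.56, -3.98, -4.0 and 4.94 in double null and 0.43, 1.22, 0.94 and 3.75 in Bmi1 null colonies. The wild-type levels were -0.98, -2.02, -1.14 and -1.84. Krt78, a type II keratin of suprabasal cells, had levels of -1.44, -2.47, -2.86 and 3.18 in double null and 1.99, 1.70, 1.34 and 2.71 in Bmi1 null colonies. Wild-type colonies gave -1.18, -1.36, -1.24 and -1.09. For both genes all Bmi1 null colonies lay above all wild-type colonies, double null replicates 1, 2 and 3 lay below all Bmi1 null colonies and double null replicate 4 lay above them. Krt78 was called higher in Bmi1 null colonies than in wild type, at 4.39 ± 0.99 (SE, adjusted p = 0.0101), and Krt76 was not, at 4.32 ± 1.56 (SE, adjusted p = 0.0827). Between the mutants, Krt76 was at -2.67 ± 1.56 (SE, adjusted p = 0.345) and Krt78 at -2.77 ± 0.99 (SE, adjusted p = 0.111) with all arrays. Without replicate 4 both were called lower in double null colonies, at -4.76 ± 0.77 (SE, adjusted p = 0.00433) for Krt76 and -4.19 ± 0.36 (SE, adjusted p = 9.05e-05) for Krt78. Both genes were among those by which replicate 4 was singled out. Their double null changes against wild type were 1.74 ± 1.56 (SE, adjusted p = 0.84) and 1.71 ± 0.99 (SE, adjusted p = 0.769) with replicate 4, and -0.38 and 0.27 without it. On the slide with 1 array of each genotype, which held double null replicate 3, Krt10 was at -2.78, Krt76 at -5.05 and Krt78 at -4.38 between the mutants. On the slide that held double null replicates 1 and 4 they were at 0.38, 0.88 and -0.34.

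**Figure D2:**
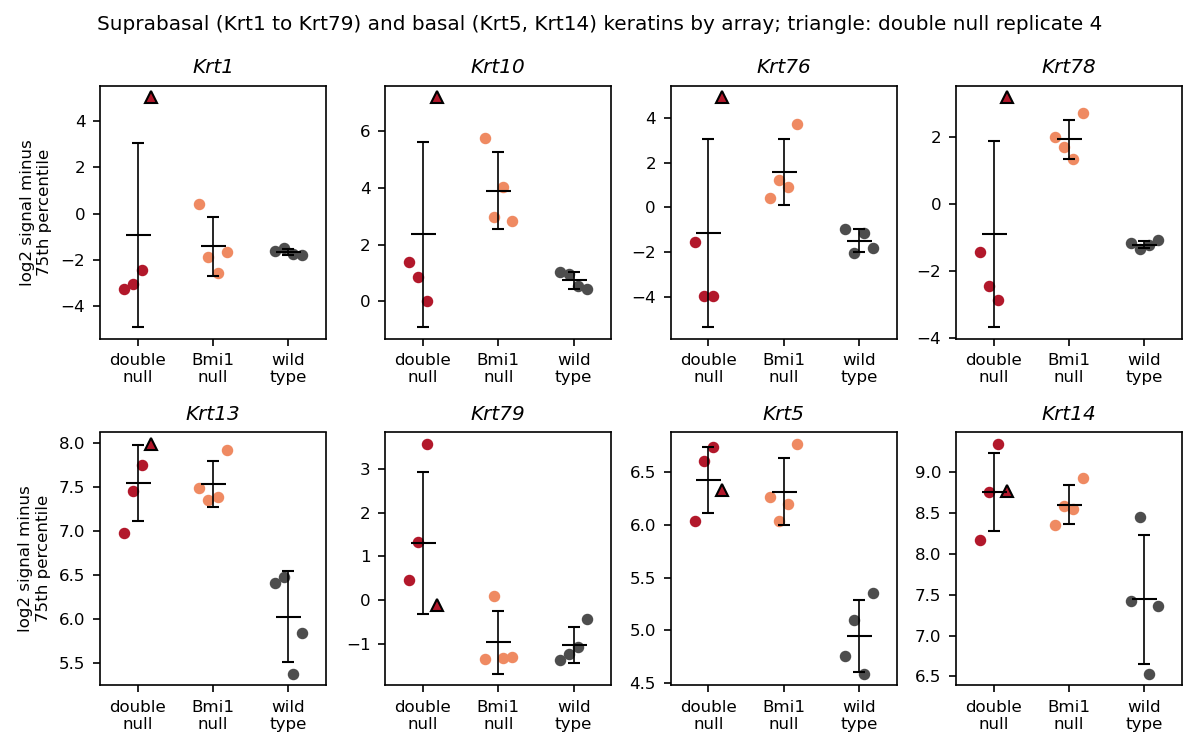
Levels of 6 suprabasal and 2 basal keratins, as scaled log2 signal, with 1 point per colony (double null, Bmi1 null, wild type from left to right), the mean as a dash and the SD as a bar, and double null replicate 4 as a triangle. For Krt1, Krt10, Krt76 and Krt78 the triangle lies above every other colony, while for Krt5 and Krt14 it lies among the other double null colonies. Each panel has its own vertical scale.

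Krt13, the type I keratin of suprabasal mucosa, had levels of 6.98, 7.46, 7.75 and 7.99 in double null and 7.48, 7.35, 7.38 and 7.92 in Bmi1 null colonies. The 4 wild-type colonies had 6.41, 6.48, 5.38 and 5.84. Every mutant colony lay above every wild-type colony, and the change was 2.92 ± 0.29 (SE, adjusted p = 3.02e-04) in double null and 2.75 ± 0.29 (SE, adjusted p = 3.42e-04) in Bmi1 null colonies. A dimmer Krt13 probe gave 2.66 in double null colonies, with an adjusted p of 0.0742, and 3.73 in Bmi1 null colonies, with an adjusted p of 0.0051. Both come from a fit of every probe, where the brighter probe gave 2.58 and 2.43. The dimmer probe had levels of 3.63, 3.88, 3.43 and 6.82 in double null and 5.75, 5.36, 5.48 and 6.02 in Bmi1 null colonies. Wild type was at 1.33 to 4.70. Double null replicates 1, 2 and 3 lay below all Bmi1 null colonies and replicate 4 above them, as for Krt76 and Krt78. Between the mutants the dimmer probe gave -1.17 (adjusted p = 0.403) and the brighter one 0.055. Krt4, the type II partner of Krt13, had levels of 0.35, -0.82, -0.69 and 0.45 in double null and 0.11, -0.76, -0.0033 and 0.59 in Bmi1 null colonies. In wild type it was at 1.37, 0.19, 1.06 and 1.18. Its change lay near the median of all genes, at 0.26 ± 0.38 in double null and 0.27 ± 0.38 in Bmi1 null colonies (SE), and turned sign with the scaling. Krt79, a type II keratin of the hair canal, had levels of 0.46, 1.32, 3.58 and -0.11 in double null and -1.34, 0.10, -1.34 and -1.31 in Bmi1 null colonies. The levels in wild type were -1.37, -1.23, -1.08 and -0.44. Double null replicates 1, 2 and 3 lay above every other colony and replicate 4 lay within the Bmi1 null range. The change was 3.74 ± 0.65 (SE, adjusted p = 0.00431) in double null colonies and 1.30 ± 0.65 (SE, adjusted p = 0.936) in Bmi1 null colonies against wild type. Between the mutants it was 2.35 ± 0.65 (SE, adjusted p = 0.0507) with all arrays, and 2.76 ± 0.62 (SE, adjusted p = 0.0224) without replicate 4.

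Of the other suprabasal keratins, Krt9, of palms and soles, and Krt2, of the upper epidermis, were called lower in both mutants, at -1.41 ± 0.64 (SE, adjusted p = 0.00119) and -0.78 ± 0.35 (SE, adjusted p = 7.17e-05) in double null and -2.04 ± 0.64 (SE, adjusted p = 3.89e-04) and -0.84 ± 0.35 (SE, adjusted p = 1.15e-04) in Bmi1 null colonies. In a fit of every probe, a second Krt2 probe gave -2.42 in double null and -2.84 in Bmi1 null colonies. The first probe gave -1.12 and -1.15 in that fit. Krt12, the type I keratin of the cornea, was called lower in Bmi1 null colonies, at -1.55 ± 0.70 (SE, adjusted p = 0.00241), from a probe well above background on 3 of the 4 arrays. The call ended with quantile normalization and the authors' deposited table, with an adjusted p of up to 0.0542. Krt12 was not called in double null colonies, at 0.17 ± 0.70 (SE, adjusted p = 0.117), where replicate 4 had -0.31 and the others -4.36 to -2.65. The 10 suprabasal keratins had a median of 1.73 in double null and 1.38 in Bmi1 null colonies against wild type, and of 0.016 between the mutants. Without replicate 4 the double null median against wild type was 0.0071 and the median between the mutants -0.28.

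**Figure D3:**
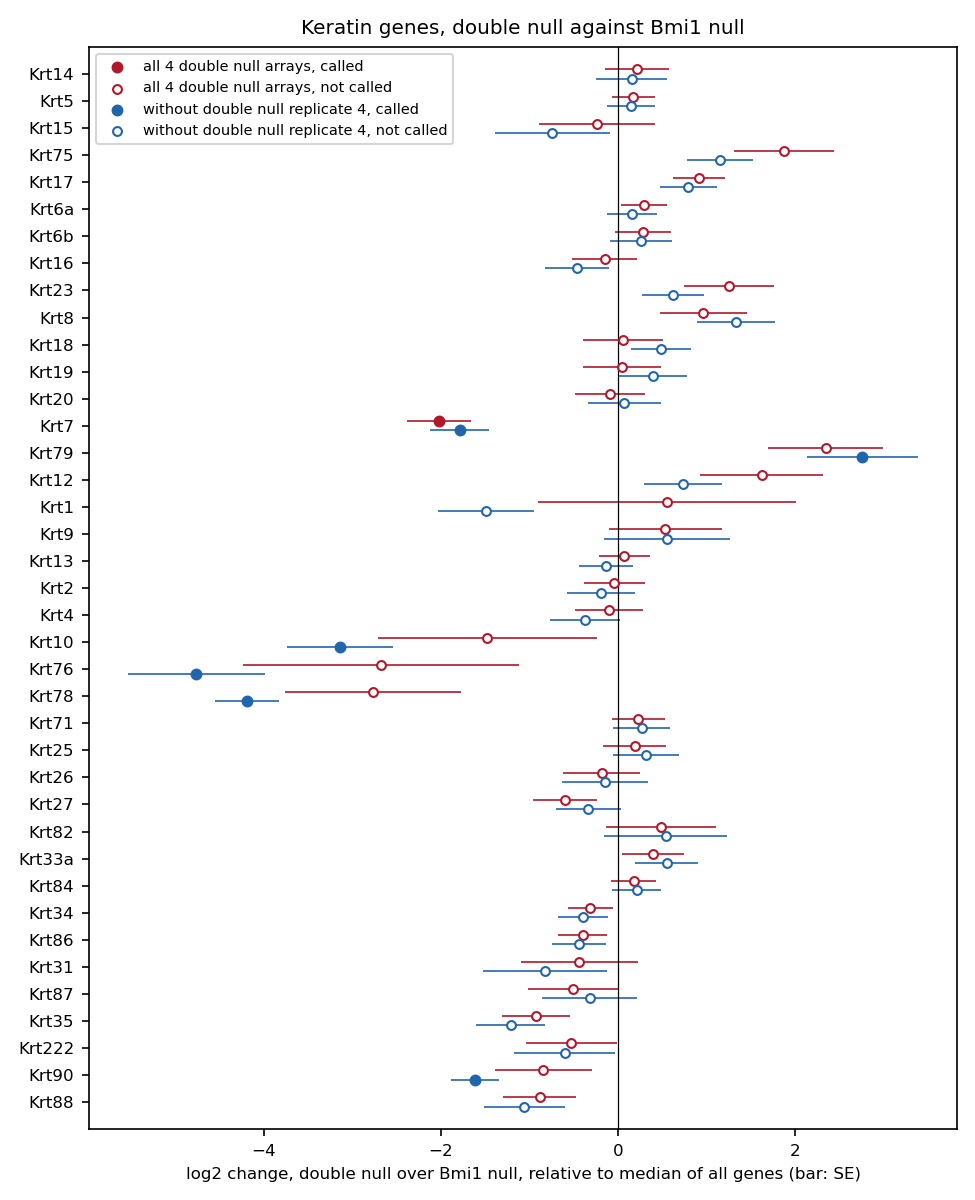
Change of each keratin gene in double null over Bmi1 null colonies, relative to the median of all genes, with SE bars, from all 4 double null arrays (red) and without double null replicate 4 (blue), where filled points are called at an adjusted p under 0.05. Krt7 is called in both, while Krt10, Krt76, Krt78, Krt79 and Krt90 are called in the blue set alone.

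Promoters of 5 of these genes are shown, since Krt10, Krt76 and Krt78 moved together with double null replicate 4, Krt7 was the gene called between the mutants and Krt5 stands for the basal pair. They are the 250 bases before the start of the gene on its own strand, from RefSeq in build GRCm38.p6, and capitals mark ATAAA, searched on the gene's strand with its first base 40 to 15 bases before the start.
Krt5, chr15:101712906-101713155, minus strand: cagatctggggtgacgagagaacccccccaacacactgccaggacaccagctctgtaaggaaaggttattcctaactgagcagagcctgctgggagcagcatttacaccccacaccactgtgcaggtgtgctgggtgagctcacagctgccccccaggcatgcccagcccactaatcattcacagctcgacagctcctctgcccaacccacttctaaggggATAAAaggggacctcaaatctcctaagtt
Krt7, chr15:101412153-101412402, plus strand: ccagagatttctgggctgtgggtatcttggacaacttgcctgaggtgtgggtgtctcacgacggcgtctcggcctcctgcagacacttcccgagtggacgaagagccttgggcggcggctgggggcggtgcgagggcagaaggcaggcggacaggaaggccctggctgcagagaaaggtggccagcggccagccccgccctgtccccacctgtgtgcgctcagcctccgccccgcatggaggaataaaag
Krt10, chr11:99389365-99389614, minus strand: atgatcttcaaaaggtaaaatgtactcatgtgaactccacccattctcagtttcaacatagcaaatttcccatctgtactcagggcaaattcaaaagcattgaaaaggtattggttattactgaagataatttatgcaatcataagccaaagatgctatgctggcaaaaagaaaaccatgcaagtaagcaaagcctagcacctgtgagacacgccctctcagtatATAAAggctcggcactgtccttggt
Krt76, chr15:101892921-101893170, minus strand: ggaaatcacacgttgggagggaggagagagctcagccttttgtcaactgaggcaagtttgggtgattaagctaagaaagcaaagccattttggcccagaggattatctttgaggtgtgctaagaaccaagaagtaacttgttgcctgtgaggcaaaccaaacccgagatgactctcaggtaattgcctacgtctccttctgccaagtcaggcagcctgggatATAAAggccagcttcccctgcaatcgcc
Krt78, chr15:101954288-101954537, minus strand: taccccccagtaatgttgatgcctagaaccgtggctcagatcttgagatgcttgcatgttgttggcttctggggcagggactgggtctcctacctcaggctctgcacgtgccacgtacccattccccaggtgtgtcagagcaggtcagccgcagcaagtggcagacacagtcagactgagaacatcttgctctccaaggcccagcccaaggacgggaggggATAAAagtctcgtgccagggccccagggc
The promoter table matched 25 of the 39 keratins, and Krt1 is named only. ATAAA stood in that window in 16 of the 25 (64%), against 5.6% of 27025 genes of the table. It was found in Krt5, Krt10, Krt76 and Krt78 and not in this window of Krt7. The motif CACCC, searched on both strands of the 250 bases, was in 21 of the 25 (84%) and in 54.5% of all genes, and TGANTCA, also on both strands, in 1 of the 25 (4%), Krt13, and in 7.82% of all genes. These are matches of letters and not binding sites.

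Hair and inner root sheath keratins, type I and type II genes of the hair shaft and of the sheath that moulds it, were mostly lower in the mutants. Of the 8 hair keratins, all 8 were called lower in double null colonies against wild type, where 59.7% of all genes were, and 7 in Bmi1 null colonies, where 58.3% were. Krt87 and Krt84, 2 of these, lay near the median of all genes. The summed level of the 2 hair follicle and nail markers tested, of 5 listed, was -0.056 to 0.14 in double null, -0.38 to 0.19 in Bmi1 null and 1.04 to 1.54 in wild-type colonies. That sum has no median taken off. Relative to the median of all genes, Foxn1 ranged over -1.72 to 0.30 in double null and -1.95 to -0.13 in Bmi1 null colonies across the alternatives. Hoxc13 ranged over -1.10 to 0.70 in double null and -0.34 to 1.45 in Bmi1 null colonies. The part of these markers in the hair keratin values was not tested. The median of the hair keratins was -1.50 in double null and -1.22 in Bmi1 null colonies, with ranges of -2.12 to -1.18 and -2.04 to -0.91 over the alternatives. Krt35, a type I keratin of the early hair cortex, had levels of -4.90, -6.86, -6.32 and -5.12 in double null and -4.23, -4.96, -4.97 and -5.10 in Bmi1 null colonies. Wild-type colonies had -0.65, -0.78, -0.72 and -1.0. Every mutant colony lay below every wild-type colony. The change was -3.62 ± 0.38 (SE, adjusted p = 1.97e-07) in double null and -2.79 ± 0.38 (SE, adjusted p = 1.20e-06) in Bmi1 null colonies. Krt35 and Krt31 were each well above background on 2 of 4 double null and 3 of 4 Bmi1 null arrays, and Krt82 on 2 of 4 double null and 1 of 4 Bmi1 null arrays, so that the size of their changes rests in part on values at background. The calls of Krt31 ended with quantile normalization and with the authors' deposited table.

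Krt33a, a type I keratin of the hair cortex, was -3.83 to -2.46 in double null, -4.09 to -2.82 in Bmi1 null and -0.083 to 0.78 in wild-type colonies, and changed by -2.17 ± 0.35 in double null and -2.66 ± 0.35 in Bmi1 null colonies (SE). Krt86, a type II hair keratin, was -2.04 to -0.69 in double null, -1.09 to -0.31 in Bmi1 null and 1.09 to 1.22 in wild-type colonies, and changed by -1.01 ± 0.28 in double null and -0.71 ± 0.28 in Bmi1 null colonies (SE). Both genes were well above background on all 12 arrays and their genotypes did not overlap with wild type. Krt34 was lower too, at -1.75 in double null and -1.54 in Bmi1 null colonies, and Krt31 and Krt82 were called lower in both, with no size given for the reason above. All 4 inner root sheath keratins were called lower in both mutants, as were 59.7% of all genes in double null and 58.3% in Bmi1 null colonies. Of these 4, Krt26 (-1.63 in double null and -1.54 in Bmi1 null colonies) and Krt27 (-1.84 in double null and -1.34 in Bmi1 null colonies) also lay below the median of all genes under every alternative, and no direction is given for Krt25 and Krt71. For Krt27 the double null replicate 1 spot was marked as an outlier and its mean is over 3 arrays. On the slide with 1 array of each genotype the hair class median was -1.91 in double null and -2.0 in Bmi1 null colonies against wild type, and on the slide with 2 Bmi1 null and 2 wild-type arrays -1.03.

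Of the 3 keratins without a class, Krt90 was called higher in both mutants, at 2.97 ± 0.55 (SE, adjusted p = 0.0166) in double null and 3.72 ± 0.55 (SE, adjusted p = 0.00101) in Bmi1 null colonies, with levels of 0.90, 1.46, 0.30 and 3.73 in double null and 2.35, 2.56, 2.92 and 2.19 in Bmi1 null colonies. The wild-type levels were 0.10, -0.083, 0.069 and -0.0021. Every mutant colony lay above the wild-type range. The double null call against wild type held under 21 of 23 alternatives, with a change of 1.49 or higher and an adjusted p of up to 0.367. Without double null replicate 4, Krt90 was called lower between double null and Bmi1 null colonies, at -1.61 ± 0.27 (SE, adjusted p = 0.0053). Krt88 was called lower in both, at -2.82 ± 0.42 (SE, adjusted p = 1.36e-06) in double null and -2.03 ± 0.42 (SE, adjusted p = 1.23e-05) in Bmi1 null colonies, and was -4.93 to -2.55 in double null, -2.48 to -2.10 in Bmi1 null and 0.64 to 1.07 in wild-type colonies.

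**Figure D4:**
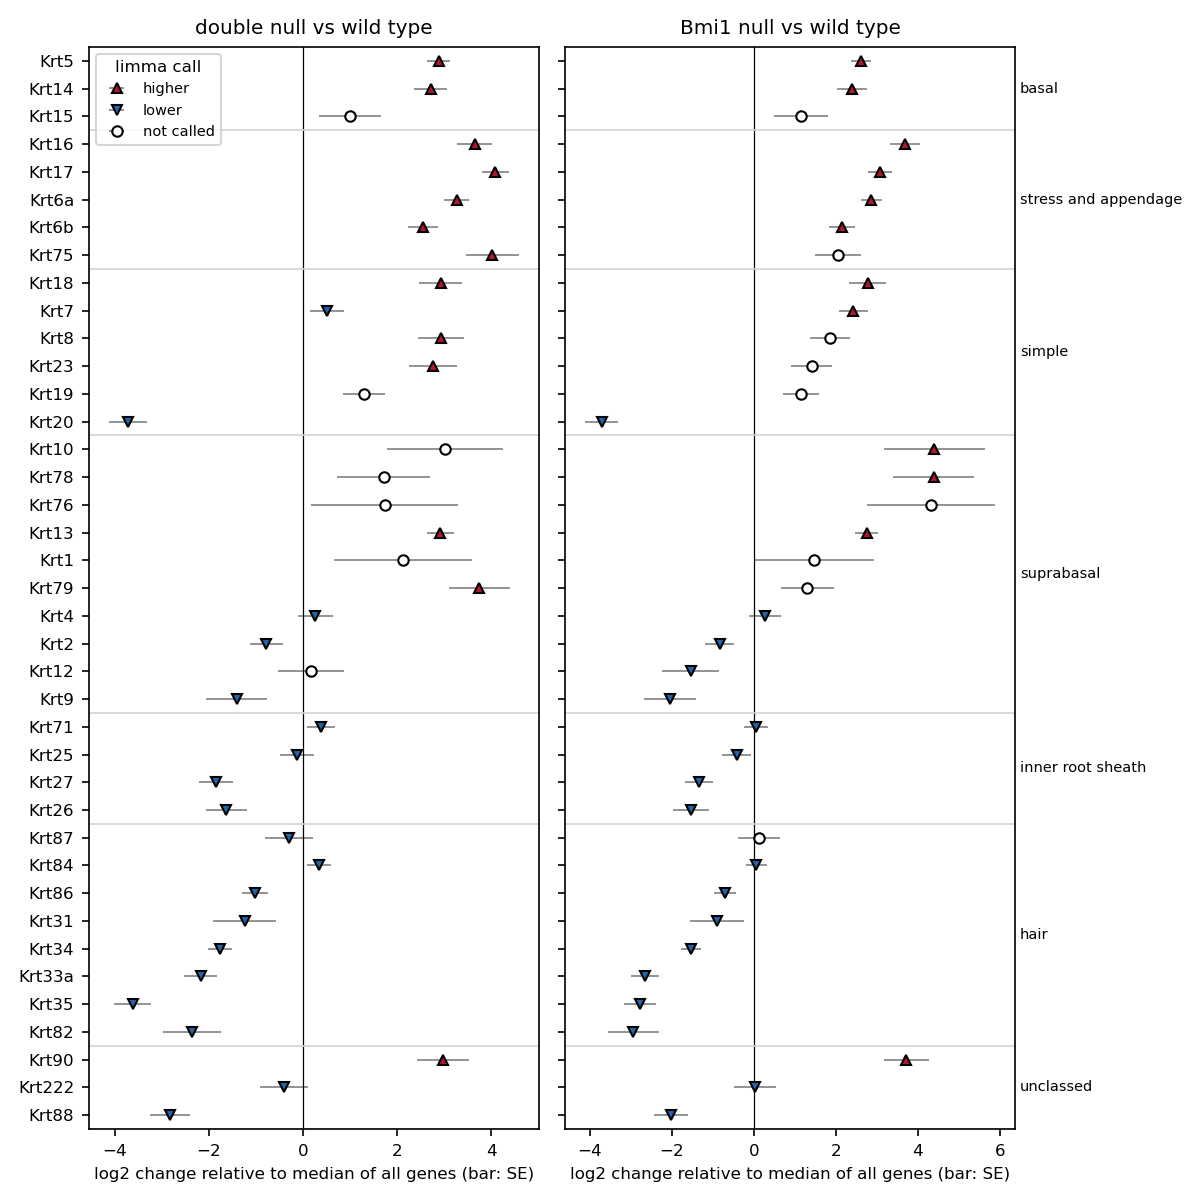
Change of each keratin gene against wild type, in double null colonies on the left and Bmi1 null colonies on the right, in log2 units relative to the median of all genes of that comparison, with SE bars; triangles mark the call of the fit before the median was taken off. The basal, stress and most simple keratins lie to the right of 0 and most hair keratins to the left, and lower calls near 0 are genes that differ little from the median gene.

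The balance within keratin pairs was followed as the type II minus type I level on each array, from the brightest probe of each gene. Its size depends on the probes, and its differences between genotypes can too, since the second probes of Krt8 and Krt13 gave other changes. A difference within an array also scales with the array's spread of signal. The interquartile range averaged 4.66 in double null, 4.52 in Bmi1 null and 2.56 in wild-type arrays. The part of that spread in the pair values was not tested. For Krt5 and Krt14 it was -2.32 ± 0.23 in double null, -2.28 ± 0.21 in Bmi1 null and -2.49 ± 0.66 in wild-type colonies (SD, n = 4 each), and all 3 genotypes overlapped. For Krt8 and Krt18 it was 0.89 ± 0.20 in double null, -0.024 ± 0.60 in Bmi1 null and 0.89 ± 0.40 in wild-type colonies, with every Bmi1 null colony below every double null colony. For Krt1 and Krt10 it was -3.29 ± 1.19 in double null, -5.32 ± 0.93 in Bmi1 null and -2.39 ± 0.19 in wild-type colonies, and the Bmi1 null range, -6.61 to -4.48, lay below the wild-type range, -2.63 to -2.20. For Krt4 and Krt13 it was -7.72 ± 0.83 in double null, -7.55 ± 0.38 in Bmi1 null and -5.07 ± 0.86 in wild-type colonies, both mutants lying below wild type without overlap. For Krt6a and Krt16 it was 1.21 ± 0.42 in double null, 0.76 ± 0.17 in Bmi1 null and 1.59 ± 0.46 in wild-type colonies, and the Bmi1 null range, 0.61 to 0.99, lay below the wild-type range, 1.08 to 2.13, while the double null range overlapped both. For Krt6b and Krt17 it was 1.68 to 2.41 in double null, 2.22 to 3.18 in Bmi1 null and 2.42 to 4.65 in wild-type colonies, with double null below wild type. For Krt7 and Krt19 it was -1.54 to -0.55 in double null, -0.12 to 2.27 in Bmi1 null and -0.75 to 0.48 in wild-type colonies, with double null below Bmi1 null. No test was run on these differences.

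Most genes that tie keratin filaments to cell junctions were higher in both mutants. Of 11 filament linkers tested, 9 were called higher in each mutant against wild type, and 1, Pkp2, was called lower. Over all genes 25.7% were called higher in double null and 25.2% in Bmi1 null colonies. Dsp was on the list of linkers but not among the genes tested. The summed epithelial markers given above moved the same way, and their part in these changes was not tested. Jup, the desmosomal plakoglobin, had levels of 5.46, 5.51, 5.98 and 6.18 in double null and 5.62, 5.36, 6.13 and 5.85 in Bmi1 null colonies. Wild-type colonies gave 3.46, 3.16, 2.80 and 3.12. Plec, the plectin that binds filaments to hemidesmosomes, had 3.99, 3.98, 4.01 and 3.27 in double null and 4.35, 4.22, 4.58 and 4.45 in Bmi1 null colonies. The 4 wild-type colonies had 1.38, 1.63, 1.49 and 2.16. All mutant colonies lay above all wild-type colonies for both genes. The change of Jup was 4.04 ± 0.24 (SE, adjusted p = 6.66e-07) in double null and 3.85 ± 0.24 (SE, adjusted p = 8.69e-07) in Bmi1 null colonies. That of Plec was 3.54 ± 0.23 (SE, adjusted p = 2.69e-06) in double null and 3.97 ± 0.23 (SE, adjusted p = 4.57e-07) in Bmi1 null colonies. The median of the 11 was 3.36 in double null and 3.34 in Bmi1 null colonies. Over the alternatives it ranged over 1.21 to 3.36 in double null and 1.58 to 3.42 in Bmi1 null colonies. Pkp2 changed sign with the scaling. The calls of Fam83h ended in both mutants with quantile normalization and the authors' deposited table, with an adjusted p of up to 0.966. The double null call of Ppl ended with quantile normalization and slide as a fixed block, with an adjusted p of up to 0.269.

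Of the 3 cornified layer partners tested, Lor, the loricrin of the cornified envelope, had levels of 0.62, 0.31, -1.70 and 5.72 in double null and 5.80, 5.14, 4.80 and 6.20 in Bmi1 null colonies. In wild type it was at 0.79, 0.44, -0.38 and -0.95. As for Krt10, Krt76 and Krt78, all Bmi1 null colonies lay above all wild-type colonies and double null replicate 4 lay far above the other double null colonies. The change was 6.75 ± 1.16 (SE, adjusted p = 6.81e-04) in Bmi1 null colonies against wild type and -4.19 ± 1.16 (SE, adjusted p = 0.0431) in double null against Bmi1 null colonies, -5.74 ± 0.58 (SE, adjusted p = 2.50e-04) without replicate 4. The call of Lor between the mutants held under 8 of 23 alternatives. It ended with quantile normalization, slide as a fixed block, the replicate block, only the 2 genotypes and on leaving out any array other than double null replicate 4, with an adjusted p of up to 0.214 and a change of -3.20 or lower in each. Krtdap, a secreted protein of differentiating keratinocytes, had levels of 3.93, 4.35, 4.29 and 6.58 in double null and 5.32, 5.25, 5.76 and 5.34 in Bmi1 null colonies. The levels in wild type were 3.17, 3.54, 1.90 and 1.40. The changes were 3.68 ± 0.57 (SE, adjusted p = 0.00225) and 4.15 ± 0.57 (SE, adjusted p = 4.00e-04) in double null and Bmi1 null colonies against wild type. The double null call of Krtdap ended with quantile normalization and slide as a fixed block, with an adjusted p of up to 0.148. Ivl, the envelope protein involucrin, was called lower in both, at -1.32 ± 0.37 (SE, adjusted p = 1.90e-05) in double null and -1.48 ± 0.37 (SE, adjusted p = 2.15e-05) in Bmi1 null colonies.

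Among 10 regulators of keratin genes, 4 were called higher and 5 lower in double null colonies, and 5 higher and 4 lower in Bmi1 null colonies, against wild type. Over all genes 25.7% were called higher and 59.7% lower in double null, and 25.2% higher and 58.3% lower in Bmi1 null colonies. Trp63, the p63 factor of stratified epithelium, was at 4.04 ± 0.20 (SE, adjusted p = 1.67e-07) in double null and 3.81 ± 0.20 (SE, adjusted p = 2.24e-07) in Bmi1 null colonies, and Klf4, a factor of the epidermal barrier, at 3.58 ± 0.35 (SE, adjusted p = 7.07e-05) in double null and 3.70 ± 0.35 (SE, adjusted p = 2.91e-05) in Bmi1 null colonies. Lef1, a Wnt pathway factor of the hair matrix, was at -2.19 ± 0.24 (SE, adjusted p = 1.51e-07) in double null, from 3 arrays, and -2.14 ± 0.23 (SE, adjusted p = 1.51e-07) in Bmi1 null colonies, and Gata3, a factor of the inner root sheath, at -1.90 ± 0.44 (SE, adjusted p = 1.67e-05) in double null and -2.03 ± 0.44 (SE, adjusted p = 2.01e-05) in Bmi1 null colonies. Msx2, a homeobox factor of hair and teeth, was the regulator called between the mutants, at -1.50 ± 0.32 (SE, adjusted p = 0.0131), with levels of -4.18, -4.22, -4.43 and -2.68 in double null and -2.49, -2.31, -2.39 and -2.07 in Bmi1 null colonies. Wild-type colonies had -3.16, -3.23, -3.22 and -3.56. Double null replicate 4 lay nearer to the Bmi1 null colonies than the other double null colonies did. The call of Msx2 ended with normexp, slide as a fixed block and only the 2 genotypes, with an adjusted p of up to 0.6.

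Of 14 other intermediate filament genes, 4 were called higher and 9 lower in double null colonies, and 3 higher and 9 lower in Bmi1 null colonies, against wild type, which is near the shares over all genes (25.7% higher and 59.7% lower in double null, 25.2% higher and 58.3% lower in Bmi1 null colonies). Vim, the vimentin of mesenchymal and cultured cells, was higher, at 3.88 ± 0.45 (SE, adjusted p = 2.07e-04) in double null and 2.92 ± 0.45 (SE, adjusted p = 0.00381) in Bmi1 null colonies, as was Lmna, a nuclear lamin, at 4.33 ± 0.28 (SE, adjusted p = 9.04e-07) in double null and 4.20 ± 0.28 (SE, adjusted p = 9.75e-07) in Bmi1 null colonies. The neurofilament gene Nefl was lower, at -4.40 ± 0.68 (SE, adjusted p = 5.36e-06) in double null and -4.24 ± 0.68 (SE, adjusted p = 9.79e-06) in Bmi1 null colonies. Lmnb1, a nuclear lamin of dividing cells, was called higher between double null and Bmi1 null colonies, at 0.77 ± 0.17 (SE, adjusted p = 0.0271), a call that held under 13 of 23 alternatives. It ended with quantile normalization, slide as a fixed block, the replicate block and only the 2 genotypes, and on leaving out any of double null replicates 1, 2 and 3 or Bmi1 null replicates 1, 3 and 4, with an adjusted p of up to 0.193.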

How the data were processed

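Whole transcriptome amplification and Cy3 labelling of total RNA preceded hybridisation, per the labels' protocols. Per the file headers, the deposited scanner output came from Feature Extraction 10.7.3.1 (protocol GE1_107_Sep09). The processed signal is a background-subtracted intensity, per the file headers, for 43379 non-control spots and 41174 probes an array. A second deposited table has the authors' own log2 values, normalized by a method the sources used here do not name, and served as an alternative.

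Control spots were left out, and spots marked as outliers (1336 on double null replicate 1, 55 to 132 on the others) became missing values. From each log2 signal the 75th percentile of its array was taken off. Probes well above background on at least 3 of 4 arrays of a genotype were kept, and the brightest probe stood for a gene, which left 31064 genes. Symbols came from a RefSeq table of assembly GRCm38.p6 through unversioned accessions (24844 of 41174 probes had 1 symbol, 0 several and 16330 none). A mean per genotype was fitted to all 12 arrays in limma 3.58.1 (R 4.3.3), using lmFit and eBayes with 9 residual degrees of freedom, with 3 contrasts and Benjamini-Hochberg adjustment over all genes of a contrast. In simulated data (30014 genes), values were independent and normal, with each gene's mean over all 12 arrays and 1 SD pooled over the 3 genotypes. For double null against Bmi1 null, 21% of 100 genes changed by 1 on the log2 scale were recovered there. Of 100 genes changed by 2, 75% were recovered, and there were 8 false calls. Real spreads differed between genotypes, as for Krt1 (SD of 3.99 in double null, 1.29 in Bmi1 null and 0.12 in wild-type colonies). The simulated figures need not hold for such genes. Background of 17 to 23 per array, and the number of arrays, limit the precision. The arrays lay on 5 slides.

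The members, classes, partner lists and marker lists were chosen with earlier results of these data known. Genes named with all values were a list of 14 keratins plus called members, and others were named after their values were seen. Alternatives were normexp (offset 50, on the median spot signal in place of the planned mean), median scaling, quantile normalization, the authors' table, 2 filters, the mean of probes, slide as a block, the replicate number as a block, only the 2 genotypes compared, and leaving out each array.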

Additional observations from a re-analysis of the deposited data

Results flagged for a closer look

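In each genotype of 4 arrays, the gap between the highest or lowest array and its nearest neighbour was compared with the range of the group. Of 117 keratin groups, 11 exceeded Dixon's 95% critical value for 4 samples, which has a nominal rate of 1 in 20. Krt27 in double null colonies, counted in the 117, had 3 values and was not checked. The share of all genes flagged by this rule was not counted, so the 11 are not read as an excess of keratins. Among double null colonies, replicate 4 was high for Krt1, at 5.04 with the others at -3.26 to -2.44, and for Krt75, at 3.59 with the others at 0.71 to 1.19. Double null replicate 2 was low for Krt88, at -4.93 with the others at -2.95 to -2.55. Among Bmi1 null colonies, replicate 1 was low for Krt17 (5.25, others 5.74 to 5.78) and Krt27 (-4.76, others -3.56 to -3.50) and high for Krt35 (-4.23, others -5.10 to -4.96). Bmi1 null replicate 2 was high for Krt79 (0.10, others -1.34 to -1.31) and low for Krt9 (-4.91, others -1.59 to -1.13). Among wild-type colonies, replicate 1 was high for Krt23 (-1.63, others -2.06 to -2.01), replicate 4 low for Krt6a (4.52, others 5.25 to 5.40) and replicate 5 high for Krt82 (-1.28, others -1.58 to -1.55).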

How the results depend on the processing

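Counts of called keratins stayed within 1.5 times of the reported value except in these cases. For double null against Bmi1 null, keratins called higher (0 as reported) were 1 with normexp, 1 with median scaling, 2 with genes kept only when well above background on all 12 arrays, 1 with slide as a random block, 1 with the replicate block and 0 to 1 on leaving out 1 array. Keratins called lower (1 as reported) were 0 with slide as a fixed block and 1 to 5 on leaving out 1 array, 5 without double null replicate 4 and 2 without double null replicate 1. Partner genes called higher (1, Lmnb1) were 0 with quantile normalization, slide as a fixed block, the replicate block or only the 2 genotypes, and 0 to 1 on leaving out 1 array. Partner genes called lower (2, Lor and Msx2) were 1 with normexp, quantile normalization or the replicate block, 0 with slide as a fixed block or only the 2 genotypes, and 1 to 3 on leaving out 1 array. For double null against wild type, keratins called higher were 8 with slide as a fixed block (13 as reported), keratins called lower 12 with median scaling (19), and partner genes called lower 10 with median scaling (16). The causes were not tested.

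Changes relative to the median are given next, and the cause of each turn was not tested. With the authors' table the changes with another sign were Krt222 0.30, Krt25 0.18, Krt4 -1.08, Krt7 -1.25, Krt71 -0.22 and Krt84 -1.0 for double null against wild type and Krt25 0.11, Krt4 -0.79, Krt71 -0.36 and Krt84 -1.08 for Bmi1 null against wild type. With genes kept only when well above background on all 12 arrays the changes with another sign were Krt4 -0.76, Krt7 -0.52, Krt71 -0.65 and Krt84 -0.69 for double null against wild type and Krt4 -0.66, Krt71 -0.88 and Krt84 -0.87 for Bmi1 null against wild type. With normexp the changes with another sign were Krt222 0.12, Krt4 -0.34, Krt7 -0.41, Krt71 -0.30 and Krt84 -0.46 for double null against wild type and Krt71 -0.12 and Krt84 -0.13 for Bmi1 null against wild type. With quantile normalization the changes with another sign were Krt222 0.98, Krt25 0.67, Krt4 -1.30, Krt7 -1.05 and Krt84 -0.74 for double null against wild type and Krt25 0.42, Krt4 -1.17, Krt71 -0.12 and Krt84 -0.85 for Bmi1 null against wild type. With the replicate block the changes with another sign were Krt222 -0.015, Krt71 -0.17 and Krt84 -0.17 for Bmi1 null against wild type. With slide as a fixed block the changes with another sign were Krt71 -0.19, Krt84 -0.14 and Krt87 0.39 for double null against wild type and Krt222 -0.32, Krt71 -0.063 and Krt84 -0.027 for Bmi1 null against wild type. On leaving out 1 array the ranges were -0.24 to 0.34 for Krt222 in Bmi1 null against wild type, -0.10 to 0.23 for Krt71 in Bmi1 null against wild type, -0.058 to 0.18 for Krt84 in Bmi1 null against wild type, -0.68 to 0.019 for Krt222 in double null against wild type and -0.034 to 0.45 for Krt4 in double null against wild type. The deviations of same-numbered colonies from their genotype means had correlations of -0.14 to 0.22, of both signs and mostly under 0.1. The sources used here do not state whether the numbers pair the colonies. These correlations rest on few arrays per genotype and cannot decide it. The replicate block left 12 keratins higher and 18 lower for double null against wild type. For Bmi1 null against wild type that block left 11 higher and 17 lower. The correlation of arrays within slides was 0.03. The median change of all genes itself moved with the scaling, and dim genes such as Krt31, Krt35 and Krt82 have the least signal over background.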
